A study of Mus musculus with 17 samples.

Results

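The insulin-like growth factor axis was examined as 10 genes of the mouse choroid plexus: the ligands Igf1 and Igf2, the receptors Igf1r and Igf2r, and the secreted binding proteins Igfbp2 to Igfbp7. The genes were chosen by name, by matching the Ensembl identifiers of the count table to GENCODE symbols, and they were 10 of the 55487 genes in the table. All 10 passed the filter on low counts and were among the 16851 genes tested. The tissue was whole choroid plexus taken from the lateral ventricles of C57BL/6 mice, whose age and sex the sources used here leave out. DSS is dextran sulfate sodium, a chemical given to mice to injure the lining of the colon. There were 17 libraries: controls (CTRL, n = 5), a group after 1 day of DSS (T1, n = 4), a group after 3 days of DSS (T3, n = 4) and a group given DSS for 3 days and then water for 2 days (T5, n = 4). The labels name no further agent or allele and do not say what the control mice received. They do not say whether libraries of a group came from separate animals or from pooled tissue, so the p-values measure only the spread between these libraries, which may be technical.

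IGF1 and IGF2 are secreted peptides related to insulin that signal through the tyrosine kinase receptor encoded by Igf1r, and in part through the insulin receptor. The receptor encoded by Igf2r, which is also the mannose 6-phosphate receptor, takes up IGF2 for degradation in lysosomes, and the binding proteins hold the ligands in extracellular fluid and limit or deliver them to receptors. The choroid plexus makes the cerebrospinal fluid and is known as a source of IGF2 and IGFBP2 in that fluid.

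Between 8875921 and 26839417 reads per library were assigned to genes. Transcripts of the choroid plexus epithelium dominated every library: its 15 markers, among them Ttr and Folr1, were all tested and summed to 100342 to 226102 CPM (read counts scaled to library size with TMM factors). The mean log2 CPM of 28 markers of brain cells (neurons, astrocytes, oligodendrocytes) ranged from 1.31 to 6.70. The sample titles carry a running number, and the 4 libraries with numbers of 28 and above were T1 replicates 2, 3 and 4 and T3 replicate 4; what the number stands for is not given. These 4 libraries had higher endothelial markers (mean log2 CPM 4.11 to 4.82) than the other 13 (2.69 to 3.97). The T1 group holds 1 library outside that set, so time on DSS and title number can hardly be told apart in T1, and values with and without the 4 libraries are given where a result rests on them.

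The counts of Igf2 cover only a part of the gene, which bears on every Igf2 value here. Igf2 lies on the minus strand of chromosome 7 (GRCm38 142650766 to 142666816) and the antisense gene Igf2os lies across it on the plus strand. A second annotated protein-coding gene on the same strand, Gm49394 (chromosome 7, 142650769 to 142669942), shares 3596 of the 5723 merged exon bases of Igf2, or 62.8%, including all 540 coding bases of the transcript Igf2-201. Gm49394 was listed at 0 reads in all 17 libraries, whereas Igf2 had 24157 reads in total, 669 to 2371 per library. Across the table, 365 of the 366 genes whose exons lie wholly within same-strand exons of a gene with at least 1000 reads were listed at 0, as were 210 of 211 such genes on the opposite strand. Reads over exons of more than 1 gene thus appear to have been counted for none of them and without regard to strand, and the Igf2 count comes from at most 2127 unshared bases, 1912 of them 5′ of the first shared base. The first coding stretch of Igf2, 157 bases at chr7:142655654-142655810 on the minus strand of GRCm38, is printed 5′ to 3′ because it is part of the sequence whose reads the count leaves out; the capitals mark the start codon.
Igf2: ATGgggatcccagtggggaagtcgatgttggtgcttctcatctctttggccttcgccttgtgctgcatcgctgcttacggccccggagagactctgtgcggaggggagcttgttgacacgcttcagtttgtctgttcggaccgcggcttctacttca

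**Figure D1:**
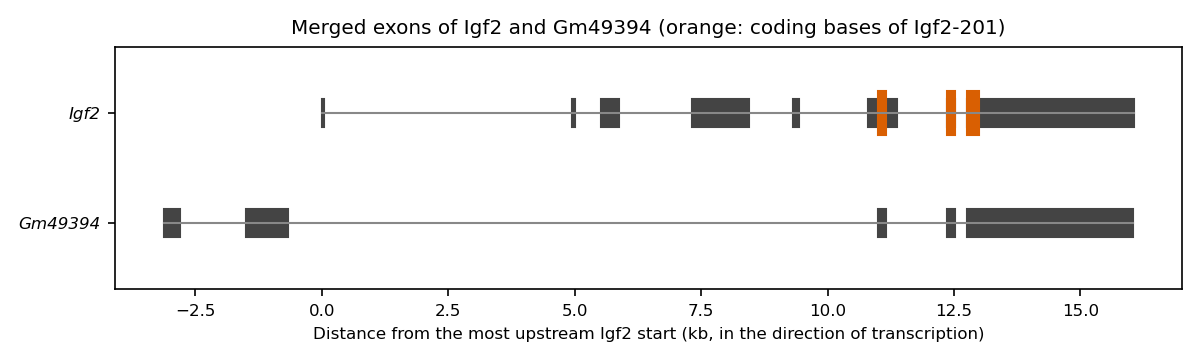
Merged exons of Igf2 and Gm49394 as boxes, placed by distance in kilobases from the most upstream Igf2 start in the direction of transcription, with the coding bases of Igf2-201 in orange. Exons of Gm49394 lie under all 540 coding bases and under the long last exon, and the exons of Igf2 further upstream hold most of its 2127 unshared bases.

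Levels between genes were compared as CPM per kilobase of merged exons, a scale per length. Igfbp2, which binds both ligands and is secreted into cerebrospinal fluid, had by far the highest level of the 10 genes, with a median of 1470 CPM per kilobase (range 792 to 1956) and rank 17 among the 16851 genes tested. Igfbp7, a protein of vessel walls and matrix with weak affinity for IGFs, followed at 220 (144 to 274), and Igfbp4, an inhibitor of ligand access, at 42.5 (17.2 to 50.2). With Igf2 measured over all its exon bases, the order Igfbp2, Igfbp7, Igfbp4, Igf2 held in 17 of 17 libraries. Of the summed level per kilobase of the classical binding proteins Igfbp2 to Igfbp6, Igfbp2 made up 89.2% to 97.7% in every library. Igf2 stood at 12.96 CPM per kilobase (10.6 to 20.5) over all its exon bases and at 34.9 (28.4 to 55.0) over the unshared bases, an alternative chosen after seeing the data. The first value is a low estimate, and the second may be low too, because the unshared bases lie at 4 annotated start sites. Over unshared bases the range of Igf2 overlapped that of Igfbp4. Igfbp3 (10.3), Igf2r (8.37), Igfbp6 (7.10) and Igfbp5 (6.85) formed a middle range in which neighbours changed places between libraries: Igf2r exceeded Igfbp6 in 8 of 17 libraries and Igfbp6 exceeded Igfbp5 in 11 of 17. The signalling receptor Igf1r had 1.55 CPM per kilobase (1.18 to 3.16) and the ligand Igf1 the lowest level, 0.79 (0.52 to 2.45); Igf1r exceeded Igf1 in 16 of 17 libraries.

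**Figure D2:**
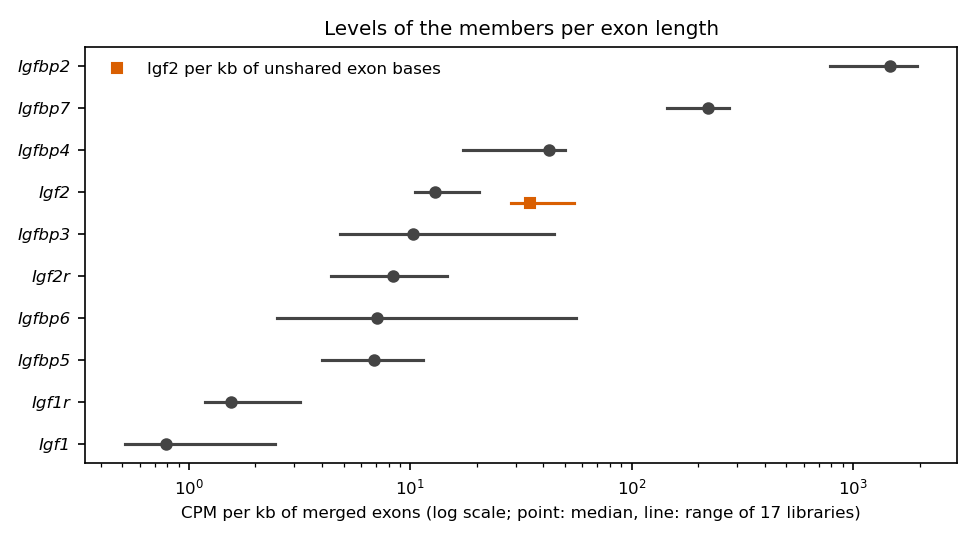
CPM per kilobase of merged exons (log axis) of the 10 genes, as the median (point) and range (line) over 17 libraries, with Igf2 per kilobase of unshared exon bases in orange. Igfbp2 and Igfbp7 lie above all others, the ranges of Igf2, Igfbp3, Igf2r, Igfbp6 and Igfbp5 overlap, and the orange range of Igf2 (28.4 to 55.0) overlaps that of Igfbp4 (17.2 to 50.2).

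All 10 genes had promoter entries in RefSeq (GRCm38.p6), 14 start sites in all. The 250 bases before the start are printed 5′ to 3′ for 4 genes, Igf1r, Igf2r and Igfbp3 because their p-values were the smallest of the 10 in T1, and Igfbp2 because of its level; capitals mark the GC box GGGCGG found on either strand. The windows are chr7:67952007-67952256 on the plus strand for Igf1r, chr17:12769707-12769956 on the minus strand for Igf2r, chr11:7213924-7214173 on the minus strand for Igfbp3 and chr1:72824230-72824479 on the plus strand for the first of the Igfbp2 starts.
Igf1r: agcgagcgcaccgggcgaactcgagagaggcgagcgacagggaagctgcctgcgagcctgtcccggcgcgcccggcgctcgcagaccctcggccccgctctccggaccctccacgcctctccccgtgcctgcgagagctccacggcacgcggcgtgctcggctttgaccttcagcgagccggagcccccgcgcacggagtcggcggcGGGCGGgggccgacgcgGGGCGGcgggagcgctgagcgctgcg
Igf2r: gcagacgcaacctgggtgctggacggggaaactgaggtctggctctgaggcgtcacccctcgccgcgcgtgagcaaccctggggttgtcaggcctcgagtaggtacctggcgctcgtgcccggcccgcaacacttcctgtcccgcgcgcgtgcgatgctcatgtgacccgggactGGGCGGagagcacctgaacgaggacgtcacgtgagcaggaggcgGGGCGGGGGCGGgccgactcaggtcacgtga
Igfbp3: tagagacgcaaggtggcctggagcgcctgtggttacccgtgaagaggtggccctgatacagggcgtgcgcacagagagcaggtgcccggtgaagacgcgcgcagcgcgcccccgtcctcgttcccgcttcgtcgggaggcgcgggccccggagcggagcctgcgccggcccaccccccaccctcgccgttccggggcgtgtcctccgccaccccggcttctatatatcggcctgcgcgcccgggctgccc
Igfbp2: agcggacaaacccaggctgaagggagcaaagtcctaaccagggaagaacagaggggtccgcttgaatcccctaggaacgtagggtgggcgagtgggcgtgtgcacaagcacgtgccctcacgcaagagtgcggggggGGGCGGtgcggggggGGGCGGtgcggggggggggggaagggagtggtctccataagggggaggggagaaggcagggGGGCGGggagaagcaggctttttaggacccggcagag

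The Igf1r window holds 2 GC boxes and has a GC content of 77.6%. The Igf2r window holds 3 GC boxes, the last pair of them adjoining, and 2 matches to the E-box CACGTG, with a GC content of 69.2%. The Igfbp2 window holds 3 GC boxes and 1 E-box at 67.2% GC, and the Igfbp3 window holds none of either at 73.2% GC. Of the 14 windows, 6 held a GC box, and 2 a TATA box (TATAAA). Among all 32851 RefSeq windows of the same length, 32.7% held GGGCGG, 6.02% CACGTG and 12.4% TATAAA on either strand, and the median GC content was 52.4%. GGGCGG and CACGTG matches were counted separately, and these are matches of letters only.

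None of the 10 genes passed an adjusted p of 0.05 in any comparison by edgeR's quasi-likelihood test with Benjamini-Hochberg adjustment over all genes tested, and neither did any other gene, so 0% of genes were called in each of the 5 comparisons. At an unadjusted p under 0.05, 1589 genes were higher and 1964 lower in T1 than in CTRL, 539 higher and 299 lower in T3, and 656 higher and 664 lower in T5. DESeq2 called 701 genes in T1, 2 in T3 and 12 in T5 against CTRL. The comparisons with CTRL share the 5 control libraries. In T1, 3 of the 10 genes (Igf1r, Igf2r and Igfbp3) were higher at an unadjusted p under 0.05, where 9.43% of all genes were. In T3, 0 of 10 passed an unadjusted p under 0.05 in either direction against 4.97% of all genes, and in T5, 2 of 10 (Igfbp5 and Igfbp6) were higher against 3.89%. The median log2 fold change of the 10 genes was 0.31 in T1 (8 of 10 positive), 0.13 in T3 and 0.16 in T5, and that of all genes was 0.08, 0.02 and 0.02.

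**Figure D3:**
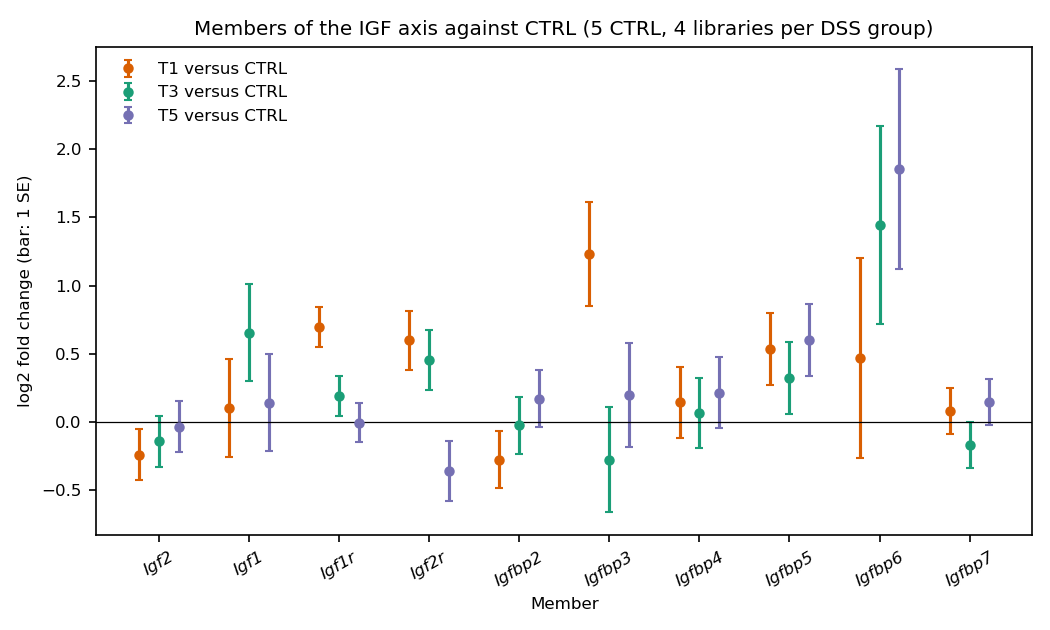
Log2 fold changes with approximate standard errors of the 10 genes in T1, T3 and T5 against CTRL (edgeR). In T1 the values of Igf1r (0.70), Igf2r (0.60) and Igfbp3 (1.23) exceed their errors most, and in T5 those of Igfbp5 (0.60) and Igfbp6 (1.86).

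For the ligands, no group stood apart from the spread of the control libraries. Igf2, a fetal growth factor that the adult choroid plexus and meninges keep expressing, was at 60.4, 67.1, 99.7, 106 and 84.1 CPM in CTRL, at 71.8, 68.8, 80.6 and 60.9 in T1, at 74.2, 81.0, 67.4 and 79.8 in T3, and at 117, 61.6, 63.6 and 82.6 in T5. The 4 groups overlapped, and the highest value was in T5 replicate 1. The log2 fold change against CTRL was -0.24 ± 0.19 (SE) in T1, -0.14 ± 0.19 in T3 and -0.04 ± 0.19 in T5, with adjusted p of 0.459, 0.925 and 0.981 by edgeR. Igf1 (chromosome 10, 87858265 to 87937042, plus strand), a ligand made in brain mostly by neurons and by activated macrophages and microglia, was lower in count, at 11.5, 7.14, 7.36, 7.81 and 5.10 CPM in CTRL and 10.6, 5.46, 6.15 and 11.3 in T1. It was at 10.1, 8.26, 6.30 and 24.2 CPM in T3 and at 12.1, 7.48, 6.60 and 8.02 in T5. A single library, T3 replicate 4, stood above all others for Igf1. The T3 log2 fold change of 0.66 ± 0.35 (edgeR adjusted p = 0.911) was 0.07 without that library.

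Of the receptors, Igf1r was higher in T1 than in CTRL with no overlap. Igf1r, the tyrosine kinase receptor for both ligands (chromosome 7, 67952827 to 68233668, plus strand), was at 24.8, 19.9, 30.5, 25.8 and 25.4 CPM in CTRL and at 31.1, 38.1, 53.1 and 41.4 in T1. In T3 it was at 25.04, 28.1, 27.5 and 34.5 CPM and in T5 at 25.5, 25.04, 26.04 and 24.1. Every T1 library lay above every control, though T1 replicate 1 did so narrowly, and T3 and T5 overlapped CTRL. Groups did not overlap and T1 was the higher for 2.9% of all genes and for 1 of the 10 genes here. The means were 25.3 ± 3.77 CPM (SD, n = 5) in CTRL and 40.9 ± 9.18 (n = 4) in T1, a log2 fold change of 0.70 ± 0.14 (SE), with an edgeR adjusted p of 0.128 (unadjusted 0.000164). The 4 libraries with title numbers of 28 and above were the 4 highest for Igf1r, at 34.5 to 53.1 CPM, while the other 13 were at 19.9 to 31.1. Without these 4 libraries the T1 log2 fold change was 0.28 (edgeR adjusted p = 0.884), with T1 represented by replicate 1 alone, and with a term for the title numbers it was 0.36 (adjusted p = 0.999).

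Igf2r, the scavenger receptor for IGF2 and for mannose 6-phosphate tagged lysosomal enzymes (chromosome 17, 12682406 to 12769664, minus strand), was at 40.8, 64.8, 77.9, 57.8 and 88.1 CPM in CTRL. It was at 69.4, 136, 115 and 77.9 CPM in T1, at 78.3, 87.5, 86.4 and 109 in T3, and at 50.3, 42.0, 47.5 and 65.2 in T5. T1 and T3 overlapped the upper controls, and every T5 library lay below every T3 library. The log2 fold change against CTRL was 0.60 ± 0.22 (SE; edgeR adjusted p = 0.158) in T1, 0.46 ± 0.22 (0.911) in T3 and -0.36 ± 0.22 (0.729) in T5. Between T3 and T5 the means were 90.3 ± 13.1 and 51.2 ± 9.92 CPM (SD, n = 4 each), a log2 fold change of -0.82 ± 0.23 with an unadjusted p of 0.00273 and an adjusted p of 0.299 by edgeR. Igf2r was 1 of the 10 genes without overlap and lower in T5, against 4.31% of all genes, and likewise 1 of 10 lower at an unadjusted p under 0.05, against 6.15%. The T5 difference from T3 was -0.72 without the 4 libraries of title number 28 and above, whereas the T1 difference from CTRL was then 0.05. Over the 17 libraries, Pearson's r of Igf2r with the mean log2 CPM of epithelial, endothelial and mural cell markers was 0.325, 0.169 and 0.169. Within the 13 libraries of title number under 28 these were 0.803, -0.877 and -0.877, and all other lists gave -0.654 to -0.446. Over the 17, ependymal (-0.535) and erythrocyte markers (-0.516) had the strongest r of the 11 lists (adjusted permutation p = 0.13 and 0.166). From T3 to T5 all 8 ependymal (median log2 fold change 0.72), 7 erythrocyte (1.31) and 10 oligodendrocyte markers (3.52) had positive values. Epithelial, endothelial and mural cell medians were -0.16, 0.19 and -0.20. The part of tissue content in the Igf2r differences was not tested. Igf2r and the antisense transcript Airn, which overlap in the genome, share no exon bases in the annotation.

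**Figure D4:**
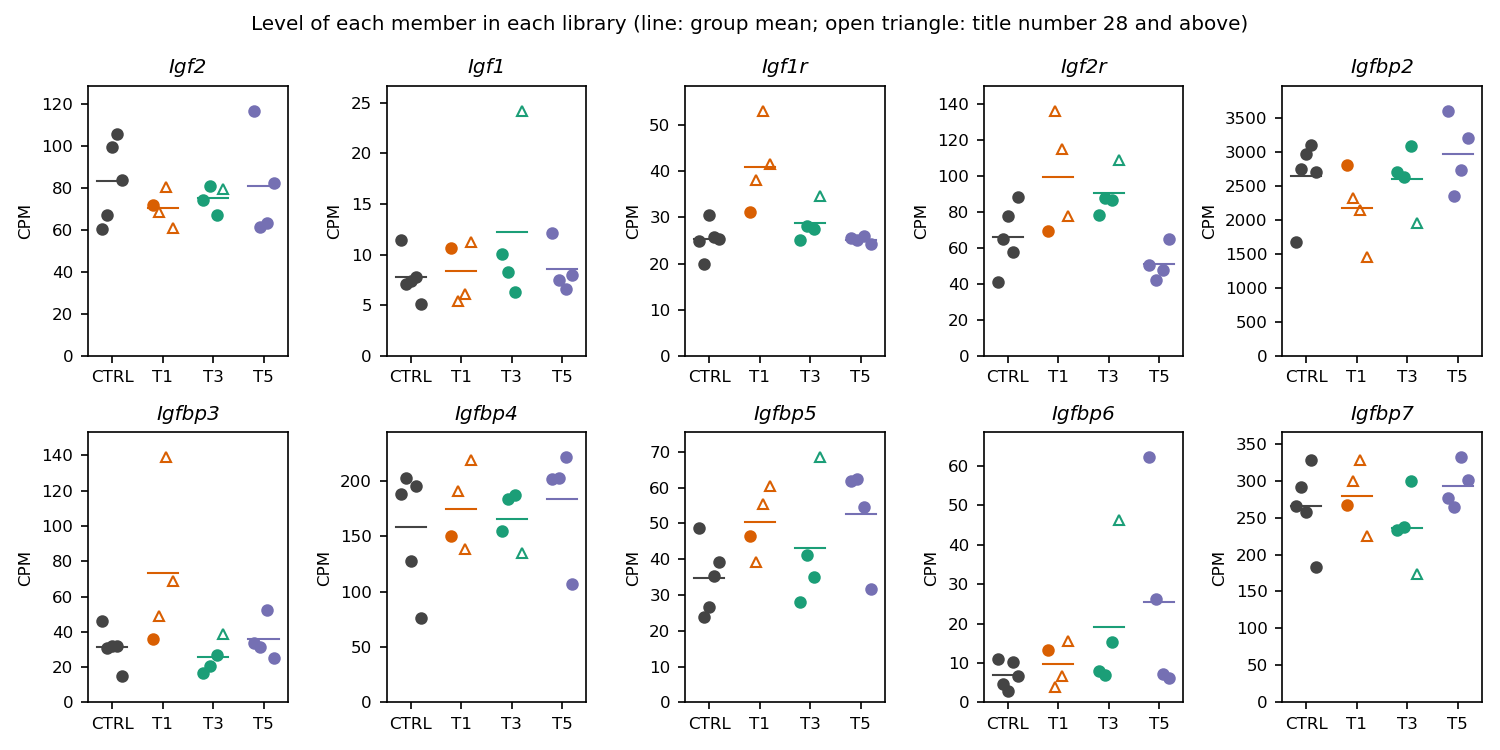
CPM of the 10 genes in each of the 17 libraries, 1 panel per gene, with group means as lines and libraries of title number 28 and above as open triangles. Igf1r is highest in those 4 libraries (34.5 to 53.1 CPM), and Igf2r is lower in each T5 library (42.0 to 65.2) than in each T3 library (78.3 to 109).

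Of the binding proteins, Igfbp3 had the largest T1 fold change, which did not pass the adjusted threshold in edgeR, and its level moved with endothelial and mural cell markers. Igfbp3, the main carrier of IGFs in serum (chromosome 11, 7206086 to 7213923, minus strand), was at 45.9, 30.7, 32.2, 31.8 and 15.1 CPM in CTRL and at 36.1, 48.95, 139 and 68.7 in T1. It was at 16.5, 20.5, 26.7 and 38.6 CPM in T3 and at 33.7, 31.3, 52.6 and 25.1 in T5. T1 replicates 2, 3 and 4 exceeded every control, and T1 replicate 1 lay within the controls. The means were 31.2 ± 10.9 CPM (SD, n = 5) in CTRL and 73.2 ± 45.9 (n = 4) in T1, a log2 fold change of 1.23 ± 0.38 (SE; edgeR adjusted p = 0.138), which was 0.73 without T1 replicate 3 and 0.20 without the libraries of title number 28 and above. T3 was lower than T1 by a log2 fold change of -1.51 ± 0.41 (edgeR adjusted p = 0.577), and Igf1r by -0.51 ± 0.15 (adjusted p = 0.577). Title numbers of 28 and above belong to T1 replicates 2, 3 and 4 and T3 replicate 4, so this comparison also differs in title number. Over the 24 alternatives the difference ranged from -1.79 to -0.74 for Igfbp3 and from -0.62 to -0.19 for Igf1r. Igfbp3 and Igf1r were 2 of the 10 genes lower in T3 than in T1 at an unadjusted p under 0.05, against 4.63% of all genes. All 12 endothelial markers, Pecam1 and Cdh5 among them, were tested; their sum lay between 112 and 260 CPM in CTRL, between 215 and 550 in T1, between 150.1 and 271 in T3 and between 166 and 246 in T5, and none was at 0 in any library. In T1 all 12 had positive log2 fold changes against CTRL, with a median of 1.11.

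Over the 17 libraries, log2 CPM of Igfbp3 followed the mean log2 CPM of the endothelial markers with Pearson's r = 0.901 and Spearman's rho = 0.909, each with a permutation p of 1e-05, the smallest that 100000 permutations can give. Adjusted over the 110 relations computed between the 10 genes and 11 marker lists, the p-values were 0.00022 and 0.00055. All permutations shuffled the 17 libraries freely, so their p-values do not set apart differences between groups or title numbers. The correlation was 0.842 without the 2 libraries farthest from the median and 0.833 within the 13 libraries of title number under 28. The 10 mural cell markers, such as Pdgfrb and Rgs5, were all tested and none was at 0, and they also had a positive median log2 fold change in T1 (1.12, 10 of 10 positive). The shift in T1 was not confined to vessel markers. Neuronal markers had the highest median (1.96, 10 of 10 positive), and fibroblast and meningeal (0.78) and border macrophage markers (0.32) were positive in 12 of 12 each. Epithelial markers had a median of 0.0019 (8 of 15 positive). Igfbp3 followed the mural cell markers with r = 0.745 and rho = 0.836 (permutation p = 0.00046 and 0.00013, adjusted 0.00633 and 0.00357), with 0.837 without the 2 farthest libraries and 0.732 within the 13. For Igf1r, r with the endothelial markers was 0.724 and rho 0.463 (permutation p = 0.00104 and 0.0625, adjusted 0.0106 and 0.211), but r was 0.422 without the 2 farthest libraries and -0.13 within the 13, so that this relation rests on the set of 4. In whole tissue, fewer cells of a type and less RNA per cell cannot be told apart, and the part of endothelial and mural cell content in the Igfbp3 difference was not tested.

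Igfbp5, a matrix-bound binding protein, and Igfbp6, which prefers IGF2, had their highest means in T5. Igfbp5 (chromosome 1, 72857932 to 72874884, minus strand) was at 48.8, 23.9, 26.5, 35.2 and 39.3 CPM in CTRL, at 46.4, 39.3, 55.3 and 60.5 in T1, at 27.9, 41.2, 35.1 and 68.5 in T3, and at 61.9, 62.3, 54.6 and 31.7 in T5. Replicates 1, 2 and 3 of T5 lay above all controls and replicate 4 did not. The T5 log2 fold change of Igfbp5 was 0.60 ± 0.26 (SE; edgeR adjusted p = 0.619), and 0.34 with the brain marker level as a covariate. The T1 mean of Igfbp5 was close to that of T5 (50.4 and 52.6 CPM). Its T1 log2 fold change was 0.54 ± 0.27 (edgeR adjusted p = 0.257). Igfbp6 (chromosome 15, 102144362 to 102149511, plus strand) was at 10.95, 4.64, 2.78, 10.2 and 6.79 CPM in CTRL, at 13.3, 3.99, 6.61 and 15.5 in T1, at 7.90, 7.02, 15.3 and 46.2 in T3, and at 62.2, 26.1, 7.24 and 6.28 in T5. The high values came from T3 replicate 4 and from T5 replicates 1 and 2, and both groups overlapped CTRL. The log2 fold change of Igfbp6 was 1.45 ± 0.73 in T3 (edgeR adjusted p = 0.911) and 1.86 ± 0.73 in T5 (0.601), which became 0.51 without T3 replicate 4 and 0.90 without T5 replicate 1. With a ratio of highest to lowest library of 22.4, Igfbp6 varied most among the 10 genes, and Igfbp7, at 1.91, varied least.

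Both genes moved with the list of fibroblast and meningeal markers, such as Col1a1, Dcn and Slc6a13, of which 12 of 12 were tested and none was at 0 in any library. The sum of these markers lay between 284 and 547 CPM in CTRL, between 527 and 642 in T1, between 412 and 1386 in T3 and between 369.7 and 909 in T5, highest in T3 replicate 4 and next in T5 replicate 1. For Igfbp5, r was 0.891 and rho 0.956 (both permutation p = 1e-05, adjusted 0.00022 and 0.00055), with 0.906 without the 2 farthest libraries and 0.881 within the 13 libraries of title number under 28. For Igfbp6, r was 0.865 and rho 0.757 (permutation p = 1e-05 and 0.0007, adjusted 0.00022 and 0.011), with 0.788 without the 2 farthest and 0.927 within the 13. Igfbp5 also followed border macrophage (r = 0.864), neuronal (0.856), astrocyte (0.820), mural cell (0.740), microglial (0.726) and endothelial markers (0.648), and fell with epithelial markers (-0.691). Igfbp6 also followed border macrophage markers (r = 0.654). Each of these r had an adjusted permutation p under 0.05, so neither gene followed fibroblast and meningeal markers alone. The part of each cell type in the T5 values was not tested.

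Igfbp2 was at 1681, 2755, 2980, 3105 and 2705 CPM in CTRL (chromosome 1, 72824503 to 72852474, plus strand), at 2807, 2321, 2142 and 1462 in T1, at 2715, 2628, 3096 and 1956 in T3, and at 3613, 2354, 2732 and 3210 in T5. The groups overlapped, with the lowest libraries being T1 replicate 4 and CTRL replicate 1. The log2 fold change against CTRL was -0.28 ± 0.21 (SE) in T1, -0.03 ± 0.21 in T3 and 0.17 ± 0.21 in T5 (edgeR adjusted p = 0.443, 0.988 and 0.899). Igfbp2 followed the epithelial markers with r = 0.806 and rho = 0.63 (permutation p = 0.00016 and 0.00815, adjusted 0.00251 and 0.0598), and r was 0.56 without the 2 libraries farthest from the median. Igfbp4 (chromosome 11, 99041244 to 99054392, plus strand) lay between 76.2 and 203 CPM in CTRL, between 138 and 219 in T1, between 135 and 188 in T3 and between 107 and 222 in T5. Igfbp7 (chromosome 5, 77349240 to 77408041, minus strand) lay between 183 and 328 CPM in CTRL, between 226 and 328 in T1, between 174 and 299 in T3 and between 265 and 332 in T5. For Igfbp4 and Igfbp7 all 4 groups overlapped, and no log2 fold change against CTRL exceeded its standard error. The exons of Igfbp7 share 85 bases with Polr2b on the opposite strand, where reads would likewise not be counted.

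**Figure D5:**
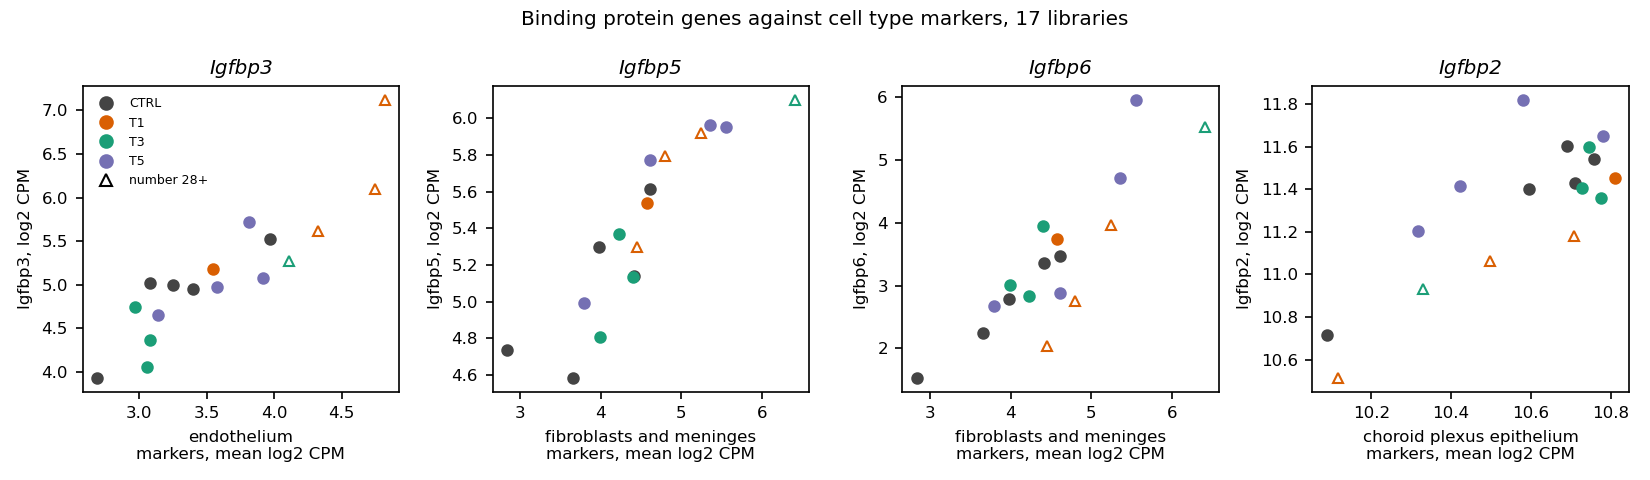
Log2 CPM of binding proteins against the mean log2 CPM of marker lists in the 17 libraries, coloured by group, with open triangles for title numbers of 28 and above. Igfbp3 with endothelium (r = 0.901), Igfbp5 and Igfbp6 with fibroblasts and meninges (0.891 and 0.865) and Igfbp2 with epithelium (0.806) are shown.

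Among 41 other genes of IGF and insulin signalling, 34 were tested, and Insrr, Irs4, Ins1, Igfbp1, Pappa, Pappa2 and Stc2 did not pass the filter. None was called by edgeR in any comparison with all libraries, and Insr and Irs1 were called in T1 under alternatives (DESeq2 adjusted p = 0.0108 and 0.0415). In T1, 25 of the 34 had positive and 9 negative log2 fold changes (median 0.23), with 6 higher and 1 lower at an unadjusted p under 0.05. These 7 genes are 20.6% of the 34, and 21.1% of all genes tested passed in either direction; of all 16851 genes, 9716 had positive values. Insr, the insulin receptor and a partner of IGF1R in hybrid receptors, was at 29.04 ± 1.95 CPM (SD, n = 5) in CTRL and at 30.5, 45.6, 57.1 and 56.0 in T1, a log2 fold change of 0.71 ± 0.17 (SE; edgeR adjusted p = 0.128). As with Igf1r, T1 replicate 1 was the lowest of its group, and without the libraries of title number 28 and above the Insr difference was 0.05. Irs1, the adaptor that links these receptors to PI3 kinase, was at 3.59 to 7.68 CPM in CTRL and at 8.74 to 11.2 in T1 without overlap, a log2 fold change of 0.73 ± 0.23 (adjusted p = 0.138, edgeR). Of the 34 genes, 1 was higher in T1 without overlap, as were 2.9% of all genes. Over the 24 alternatives the Irs1 difference ranged from 0.50 to 0.83. Grb10, an adaptor that inhibits these receptors, had a T1 log2 fold change of 0.28 ± 0.10 (edgeR adjusted p = 0.16).

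In T3, 19 of the 34 were positive and 15 negative, with 1 higher and 1 lower at an unadjusted p under 0.05, which is 5.88% of the list against 4.97% of all genes. Of all 16851 genes, 8888 were positive and 7963 negative in T3. Akt1, a kinase downstream of PI3 kinase, was at 151 to 173 CPM in CTRL and at 99.9 to 127 in T3 without overlap, a log2 fold change of -0.45 ± 0.13 (edgeR adjusted p = 0.911). Pik3ca, a catalytic subunit of PI3 kinase, was also lower without overlap at -0.22 ± 0.15, and Pdpk1, the kinase that activates AKT, was at 0.25 ± 0.10 (both adjusted p = 0.911 by edgeR). Akt1 and Pik3ca were the 2 of 34 that were lower without overlap, as were 0.92% of all genes. In T5, 13 were positive and 21 negative, and of all 16851 genes 9187 were positive and 7664 negative. Igf2bp3, which encodes an RNA-binding protein that binds Igf2 mRNA, had a T5 log2 fold change of -1.23 ± 0.57, and Pdpk1 one of 0.20 ± 0.10 (edgeR adjusted p = 0.631 and 0.651). The Igf2bp3 value rests on few reads, 188 over all 17 libraries. Its level was 0.22 to 1.01 CPM in CTRL and 0.16 to 0.52 in T5, with overlap. Against T1, T3 had 8 positive and 26 negative values, where all genes had 8087 positive and 8764 negative. Against T3, T5 had 11 positive and 23 negative, where all genes had 8571 positive and 8280 negative. The T1, T3 and T5 libraries are shared between these comparisons and those with CTRL.

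The genes whose log2 CPM was most like each member over the 17 libraries were listed among 13109 genes averaging 1 CPM or more, as a description that rests on the same libraries and their shared tissue content. Igfbp2 had the closest, Pqlc1 (Pearson's r = 0.982), then Ctsd (0.955), which encodes the lysosomal protease cathepsin D, and Tmed3 (0.954). For Igf2r they were Myo7a (0.962), Abca4 (0.960) and Rab3gap2 (0.944), and for Igf1r Tnrc18 (0.937), Shank2 (0.923) and Atg2a (0.920). For Igfbp3 they were Podxl (0.922), which encodes a sialomucin of vessel lining and podocytes, Col4a1 (0.920), which encodes a chain of basement membrane collagen, and Btnl9 (0.904). For Igfbp6 they were Crabp2 (0.962), a retinoic acid carrier, Ptgds (0.956), the prostaglandin D synthase of meninges and choroid plexus, and Cmbl (0.951), and for Igfbp5 Sncb (0.940), Tgm2 (0.935) and Crispld2 (0.934). The ligands and the remaining binding proteins had looser neighbours: Man2c1 (0.833) for Igf2, Dcdc2a (0.818) for Igf1, Cpxm1 (0.796) for Igfbp4 and Adh1 (0.783) for Igfbp7 were the closest.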

How the data were processed

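Total RNA was sequenced from SMART-Seq v4 libraries, per the labels' protocols; this kit primes on poly(A). The authors deposited 1 table of raw read counts per gene for 17 libraries, with no normalization; STAR 2.6.1b, featureCounts 1.6.4, Trimmomatic 0.39 and GRCm38 are listed in the submitters' processing notes, and the annotation release, strand and multi-mapping settings are left unstated there. Libraries held 8875921 to 26839417 counted reads, and samples were grouped by the labelled time point. The 10 genes and the lists were chosen with earlier results of these data known.

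Of 55487 identifiers, 55394 matched GENCODE M21. Counts were normalized with TMM and tested with edgeR 4.0.16 (R 4.3.3; glmQLFit, robust; filterByExpr by group; 1 mean per group over all 17 libraries; Benjamini-Hochberg; threshold 0.05), and standard errors are the log2 fold change over the square root of F, an approximation. Alternatives were DESeq2 1.42.0, other normalization, no filter on low counts (only at least 1 count in all), a term for or removal of title numbers of 28 and above, a brain marker covariate, and each library left out. CPM are TMM-normalised, and log2 CPM for correlations used a prior count of 2. Correlations were tested with 100000 permutations (scipy 1.17.1). Replicate libraries of a group differed by more than counting noise (chi-square per gene 7.52 to 107), and none was counted as a duplicate. The fit was also run on simulated counts with known changes in T1, and the outcome is not given here. Those counts held no differences in tissue content or title number. Besides the 10 genes, the pathway genes with the 3 smallest p in each comparison with CTRL and the 3 genes nearest each member were named, except 1 result that is not reported here.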

Additional observations from a re-analysis of the deposited data

Results flagged for a closer look

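In 40 groups of values (10 genes in 4 groups of libraries), 2 held a library far from the others of its group by Dixon's test, and chance gives about 1 in 20. Igfbp2 in CTRL replicate 1 was at 1681 CPM, below the other controls at 2705 to 3105. Igfbp4 in T5 replicate 4 was at 107 CPM, below the other T5 libraries at 202 to 222.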

How the results depend on the processing

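Of the 42 gene results named, each under up to 24 alternatives, 30 kept their direction throughout, and the cause of the changes below was not tested. Genes called numbered 0 by edgeR in each comparison; DESeq2 called 701 in T1, 2 in T3 and 12 in T5 against CTRL, 16 in T3 against T1 and 80 in T5 against T3. Among the 10 genes, DESeq2 called 2 in T1, against 701 of the 16851 genes tested: Igf1r (adjusted p = 0.00321) and Igfbp3 (0.027). Insr was also called in T1 by DESeq2 (0.0108) and by edgeR without T1 replicate 1 (0.0179) or T3 replicate 4 (0.0345), and Irs1 by DESeq2 (0.0415). Leaving out 1 library gave 0 to 2203 genes in T1 (2203 without T1 replicate 1, 717 without T3 replicate 4), 0 to 3 in T3 against T1 and 0 to 1 in T5 against T3. Of the 10 genes, 0 to 3 were then called in T1. Without T1 replicate 1 they were Igf1r (edgeR adjusted p = 0.0192), Igf2r (0.0408) and Igfbp3 (0.0268), against 2203 of all genes tested. Without T3 replicate 4 it was Igf1r (0.0268), against 717 of all genes tested. The filter was rerun in each fit, and the main fit tested 16851 genes. With T1 replicate 1 left out, all T1 libraries and no control had title numbers of 28 and above. With T3 replicate 4 left out, only T1 libraries had such numbers. Time on DSS and title number thus cannot be told apart in the first fit, and hardly in the second. The range of the adjusted p over all alternatives was 0.00321 to 0.999 for Igf1r in T1 and 0.075 to 0.631 for Igf2r in T5 against T3.

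Directions turned as follows, in log2 fold change against CTRL. With a term for title numbers of 28 and above, T1 gave Igf1 -0.28, Igfbp2 0.092 and Igfbp6 -0.064, and T3 gave Igfbp2 0.087. Without those libraries, T1 (replicate 1 alone, its spread taken from the other groups) gave Igfbp2 0.065, Igfbp4 -0.088 and Igfbp7 -0.010, and T3 gave Igfbp2 0.090. With the brain marker covariate, T1 Igf1 was -0.072, T5 Igf2 0.042 and T5 Igfbp3 -0.047. Igf1r in T5 was 0.00282 with DESeq2's size factors in edgeR and 0.00275 in DESeq2. Leaving out 1 library gave ranges of -0.080 to 0.30 (Igf1), -0.022 to 0.25 (Igfbp4) and -0.020 to 0.17 (Igfbp7) in T1, of -0.15 to 0.085 (Igfbp2), -0.12 to 0.17 (Igfbp4) and -0.00317 to 0.47 (Igfbp5) in T3, and of -0.077 to 0.32 (Igf1), -0.082 to 0.071 (Igf1r), -0.27 to 0.063 (Igf2) and -0.052 to 0.38 (Igfbp3) in T5. No paired analysis was possible because the labels do not say that equal replicate numbers in different groups mark pairs. Depth limits Igf1 and Igfbp6 most, the genes with the lowest mean CPM of the 10.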
